A study of Mus musculus with 21 samples.

Results

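The probes described here are the long intergenic noncoding RNA (lincRNA) probes of single-color Agilent mouse arrays, which are the non-control probes whose names start with A_30_P. They were 16251 of the 55681 non-control probes of the array design used at day 7 and 4460 of the 56605 of the design used at day 0, and all 4460 are on both designs with the same sequence. The arrays measured total colon RNA of germ-free (GF) C57BL/6J mice, bred in isolators, all of which the labels give as male. At day 0, before colitis was induced, 7 arrays were labelled GF Card9-/- and 6 were labelled GF WT. At day 7, after 7 days of 2% dextran sulfate sodium (DSS) in drinking water, which injures the colon epithelium, 4 arrays carried each label. Card9 encodes an adaptor protein of innate immune signaling in myeloid cells. The labels give no age, and all groups lacked a microbiota, and each array held 1 sample. Nothing given here says which mice shared a litter or cage, so that p-values measure the spread between these arrays.

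LincRNAs are transcribed by RNA polymerase II from regions between protein-coding genes, and many are spliced and polyadenylated like mRNAs but are not translated. As a class they are less abundant and more restricted to particular cell types than mRNAs. A few are abundant and well studied, such as Xist, which coats and silences the inactive X chromosome, Neat1, the scaffold of nuclear paraspeckles, and Malat1 (also called Neat2), which resides in nuclear speckles. On these arrays most lincRNA probes carry no gene symbol. They are named by a candidate region, its coordinates on the NCBI37 (mm9) build and the strand (F or R) that the probe would detect.

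Every lincRNA probe has 60 bases, and no 2 lincRNA probes of a design have the same sequence. The following probes are printed because the named RNAs are described through them. They lie at chrX:100655839-100655898 on the minus strand (Xist), chr19:5842654-5842713 on the minus strand (Neat1), chr11:3540263-3540322 on the minus strand (Tug1), and chr19:5795713-5795772 and chr19:5795773-5795832 on the minus strand. The last 2 abut each other within Malat1.
A_30_P01023652 (XIST): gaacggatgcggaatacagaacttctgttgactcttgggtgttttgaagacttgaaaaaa
A_30_P01029720 (NEAT1): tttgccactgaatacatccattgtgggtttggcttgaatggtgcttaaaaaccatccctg
A_30_P01033104 (TUG1): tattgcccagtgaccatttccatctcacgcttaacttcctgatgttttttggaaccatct
A_30_P01019221 (NEAT2): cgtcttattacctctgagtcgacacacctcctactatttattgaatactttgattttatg
A_30_P01020325 (NEAT2): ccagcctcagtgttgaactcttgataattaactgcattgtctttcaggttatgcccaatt

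The next probes are printed because they are among the probes with the lowest p of each day among those above background on every array, and each is described below with its values. A_30_P01018875 lies at chr2:158181725-158181784 (minus strand), A_30_P01020004 at chr4:133213733-133213792 (minus strand), A_30_P01024661 at chr7:111530612-111530671 (minus strand), A_30_P01022270 at chr3:90428082-90428141 (plus strand) and A_30_P01025535 at chr11:53596920-53596979 (minus strand).
A_30_P01018875: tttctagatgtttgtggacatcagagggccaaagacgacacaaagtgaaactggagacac
A_30_P01020004: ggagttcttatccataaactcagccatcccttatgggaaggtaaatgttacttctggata
A_30_P01024661: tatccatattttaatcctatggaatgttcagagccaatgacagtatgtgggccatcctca
A_30_P01022270: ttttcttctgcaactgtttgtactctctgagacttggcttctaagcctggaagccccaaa
A_30_P01025535: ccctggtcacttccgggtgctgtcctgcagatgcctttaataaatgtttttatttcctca

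The last 4 are printed as pairs because their letters show what they share. A_30_P01028665 (chr17:6457777-6457836, plus strand) and A_30_P01027121 (chr17:6288982-6289041, minus strand) were designed for different regions of chromosome 17. A run of 56 bases, in capitals, is identical in them. A_30_P01030698 (chr11:16835674-16835733, minus strand) and A_30_P01023604 (chr11:16835701-16835760, plus strand) were designed for both strands of 1 region, and the 33 bases in capitals of each are the reverse complement of those of the other.
A_30_P01028665: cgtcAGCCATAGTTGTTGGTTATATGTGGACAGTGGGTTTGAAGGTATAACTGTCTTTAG
A_30_P01027121: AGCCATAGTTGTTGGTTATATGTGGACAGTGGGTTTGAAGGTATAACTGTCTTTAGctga
A_30_P01030698: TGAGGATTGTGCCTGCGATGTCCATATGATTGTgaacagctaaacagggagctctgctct
A_30_P01023604: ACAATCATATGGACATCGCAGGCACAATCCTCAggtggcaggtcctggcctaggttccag

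The labels of the arrays were checked before any comparison. Card9 went against the genotype labels. At day 0 its probe A_66_P128849 was well above background on all 7 arrays labelled GF Card9-/-, at 8.71 to 9.24 on the log2 scale, and on none of the 6 labelled GF WT, at 2.3 to 2.33. At day 7 its probe A_55_P1986722 was well above background on all 4 arrays labelled GF Card9-/- (7.93 to 8.57) and on 1 of the 4 labelled GF WT, replicate 1 (7.85). Whether these probes lie in the deleted part of Card9 is not given in the sources used here. Directions are therefore those of the labels throughout, as arrays labelled GF Card9-/- minus arrays labelled GF WT. All 8 colon epithelium markers, such as Epcam, Muc2 and Slc26a3, were well above background on every array at both days. The 9 markers of the exocrine pancreas, which lies beside the colon, had a mean log2 signal of 17.46 in GF Card9-/- replicate 7 at day 0, against 4.35 to 5.73 in the other arrays of that day. At day 7 they were at 15.76 in GF Card9-/- replicate 6 and 11.57 in replicate 2.1, against 3.9 to 6.12 in the other arrays. High values were thus found only under the label GF Card9-/-, but not in all of its arrays. The others of that label were at 4.43 to 5.31 at day 0, and replicates 2 and 4 were at 4.31 and 6.12 at day 7.

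The lincRNA probes were detected less often than the other probes, and the difference was larger on the day 7 design, which holds more of them. The scanner software marks a spot as well above background when it is brighter than the local background by a set margin. At day 0, 1471 lincRNA probes (33%) were well above background on all 13 arrays, against 51.3% of the other probes. At day 7, 2291 (14.1%) were well above background on all 8 arrays, against 47.8% of the others. Conversely, 1692 lincRNA probes (37.9%) at day 0 and 8539 (52.5%) at day 7 were not well above background on any array, against 27.4% and 28.3% of the other probes. The 2 designs hold different sets of lincRNA probes, so that these shares do not compare the days.

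**Figure D1:**
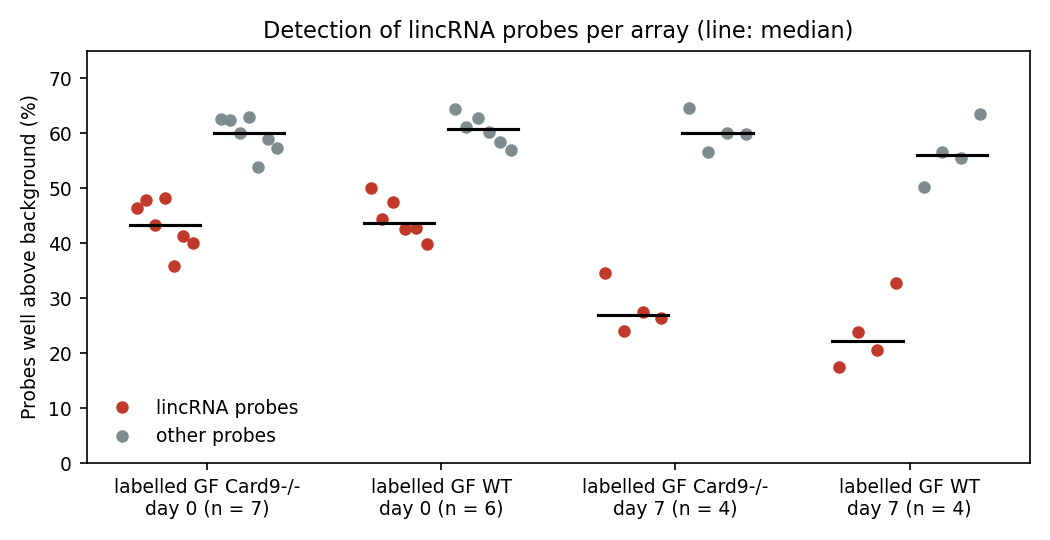
Share of probes well above background in each array (y axis, percent) for lincRNA probes (red) and all other non-control probes (grey), by label and day, with the median as a line. In each of the 21 arrays the lincRNA share lies below the share of the other probes, and the lincRNA shares of the labels overlap within each day.

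Per array, the share of lincRNA probes well above background ranged from 35.8% to 48.2% (median 43.3%) in the 7 arrays labelled GF Card9-/- at day 0. It ranged from 39.9% to 50% (median 43.6%) in the 6 labelled GF WT. At day 7 it was 34.5%, 24%, 27.4% and 26.4% in GF Card9-/- replicates 2, 2.1, 4 and 6, and 17.5%, 23.8%, 20.5% and 32.8% in GF WT replicates 1, 4, 5 and 6. The ranges of the labels overlapped at both days. Where day 7 arrays of both labels lay on 1 slide, the shares were close, at 34.5% and 32.8% on one slide and 24% and 23.8% on the other. Every day 0 slide held both labels, and there the shares were further apart. They ran from 42.6% to 48.2%, from 42.8% to 47.8%, from 35.8% to 41.4% and from 40.1% to 50% within a slide. The part of the slide in these shares was not tested. The other probes reached medians of 60% and 60.8% at day 0 and 60% and 56% at day 7. Of the negative control spots, which match no mouse transcript, 0% to 3.57% of an array passed the same criterion.

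Because the day 0 probes are a subset of the day 7 probes, the shared 4460 could be followed on both designs. Of these, 1471 were above background on all day 0 arrays and 1034 on all day 7 arrays, and 1019 were in both sets, which is 69.3% of the first and 98.5% of the second. A further 1321 were above background on no array of either day. A single probe was above background on every day 0 array and on no day 7 array, the XIST probe, and 0 showed the reverse. The detected lincRNAs of day 7 among the shared probes were thus almost entirely a subset of those of day 0. Day, DSS and array design cannot be told apart in this, and no such count is given for the other probes.

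Signal followed the same pattern as detection. After quantile normalization within a day, the log2 level of the lincRNA probes, averaged over arrays, had a median of 4.06 at day 0 and 3.09 at day 7, against 6.08 and 5.98 for the other probes. Before normalization these medians correspond to processed signals of 17.7 and 7.86 against 71.4 and 65 units. The dimmest signal that counted as well above background lay between 3.75 and 5.79 on the log2 scale, depending on the array, so that a large part of the lincRNA distribution lies below the range in which a probe is measured.

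**Figure D2:**
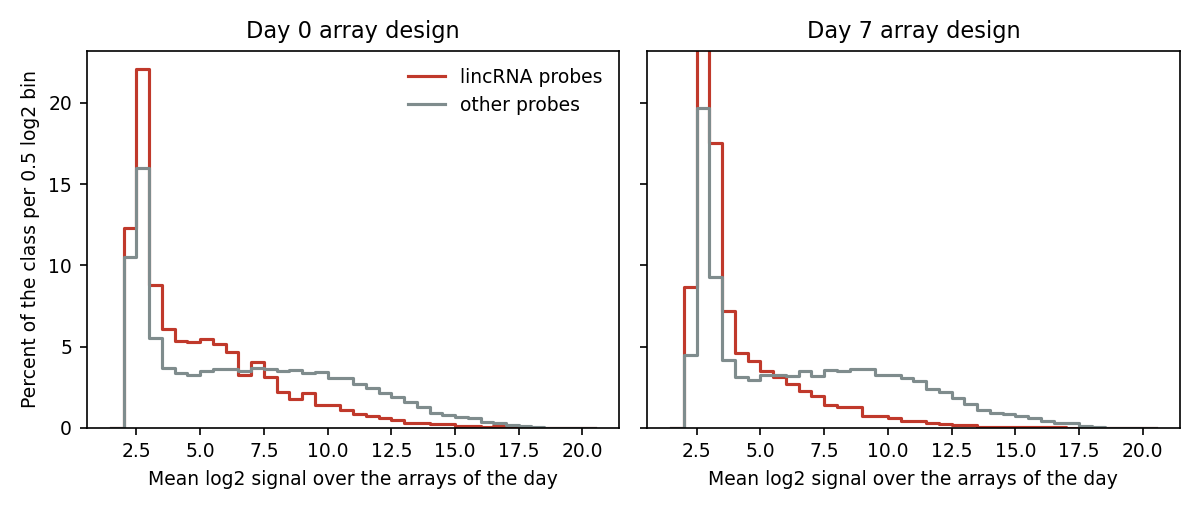
Distribution of the mean log2 signal (x axis) over probes (y axis, percent of the class) for lincRNA probes and all other non-control probes of each design. The lincRNA probes pile up at the dim end, with medians of 4.06 at day 0 and 3.09 at day 7, whereas the other probes have medians of 6.08 and 5.98.

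Restricting to probes above background on every array narrowed the gap without closing it, with medians of 7.67 against 9.5 at day 0 and 7.87 against 9.77 at day 7. Very bright lincRNAs were few. A level over 12 was reached by 118 lincRNA probes at day 0 (2.65%) against 11% of the other probes, and by 149 at day 7 (0.917%) against 10.9%. The base composition of the classes also differed, with a median GC content of 45% in lincRNA probes and 41.7% in the other probes of both designs. LincRNA probes with the highest GC content were detected most often. Those with under 35% GC were above background on all arrays in 23.6% of cases at day 0 and 11.5% at day 7, and those with over 50% GC in 50.4% and 24.1%. The other probes covered a smaller range, from 46.5% to 61.5% at day 0 and from 46.3% to 52.6% at day 7. The part of GC content in these shares was not tested.

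Detected lincRNA probes came from every chromosome that had such probes. Chromosome 1 held the most lincRNA probes of either kind, detected or not (338 at day 0 and 1199 at day 7), and chromosome 17 the most that were above background on all arrays (116 and 189). The share above background on all arrays ran from 22.2% on chromosome X to 48.7% on chromosome 17 at day 0, and from 8.42% on chromosome 9 to 21.3% on chromosome 19 at day 7. Chromosome 19 carries Neat1 and Malat1.

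The probes were designed for both strands of their regions in near equal numbers, and the arrays separated the strands in many regions. At day 7, 8199 lincRNA probes were for the forward and 8052 for the reverse strand of 3555 regions, with a median of 3 probes and up to 10 for each strand of a region. At least 1 probe was above background on all arrays in 1117 regions (31.4%) at day 7 and in 1222 of 3240 regions (37.7%) at day 0. Of the 1067 regions probed on both strands at day 7, 184 had such a probe for the forward strand alone, 210 for the reverse strand alone, 160 for both strands and 513 for neither. At day 0 the corresponding numbers over 832 regions were 163, 193, 164 and 312. One strand alone was thus detected more often than both.

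Probes of 1 candidate transcript did not always detect it together. Of the 3397 region strands with at least 3 probes at day 7, 145 had every probe above background on all arrays, 880 had some and 2372 had none. Sequence shared between probes was limited but present. A run of at least 40 bases was shared with a lincRNA probe of another region by 50 probes at day 0 (1.12%) and by 374 at day 7 (2.3%), and with a probe outside the class by 8 and 176. Probes for opposite strands of a region often covered the same bases, and a run of at least 40 bases was the reverse complement of another lincRNA probe in 248 probes at day 0 and 2527 at day 7. In the 1200 such pairs of 1 region at day 7, 35 had both probes above background on all arrays, 127 had 1 probe on all and the other on no array, and 130 had 1 on all and the other on some arrays.

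Among the named RNAs, Xist was high at day 0 and not above background at day 7, under both labels. The probe A_30_P01023652 had log2 levels from 13.26 to 13.99 (median 13.58) in the 7 arrays labelled GF Card9-/- at day 0 and from 13.09 to 13.83 (median 13.76) in the 6 labelled GF WT. All 13 were well above background, and the labels differed by 0.01 (SE 0.166, limma adjusted p = 0.995). At day 7 the same probe was well above background on 0 of 8 arrays, with values of 2.52, 3.76, 2.52 and 2.45 in GF Card9-/- replicates 2, 2.1, 4 and 6 and of 2.47 to 2.53 in the GF WT arrays. None of the 5 Xist lincRNA probes of the day 7 design was above background on any of its arrays. The Xist probe outside the class that is on both designs, A_52_P300376, behaved likewise, at 8.71 to 9.26 on all 13 day 0 arrays and at no more than 3.59 on the 8 day 7 arrays.

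Xist is transcribed from the inactive X chromosome of female cells, and the labels give male for every sample. Genes of the Y chromosome were therefore read beside it. Ddx3y, an RNA helicase, and Eif2s3y, a translation initiation factor, both on the Y chromosome, were above background on 0 of 13 day 0 arrays with both of their probes. At day 7 both were above background on all 8 arrays, at 9.08 to 9.55 and 10.43 to 10.97. Kdm5d and Uty, further genes of the Y chromosome, were less clear. At day 0, 1 of the 6 Kdm5d probes, A_55_P2713689, was above background on all 13 arrays and the other 5 on at most 1, and the 3 Uty probes were above background on at most 1. At day 7 the Kdm5d and Uty probes were above background on 3 to 5 of the 8 arrays. The levels of Xist, Ddx3y and Eif2s3y go against the label male at day 0, in arrays of both genotype labels, and they cannot be told apart from the day and the array design. Tsix, the antisense transcript of Xist, was not above background on any array with its 1 lincRNA probe at day 0 or its 5 at day 7.

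**Figure D3:**
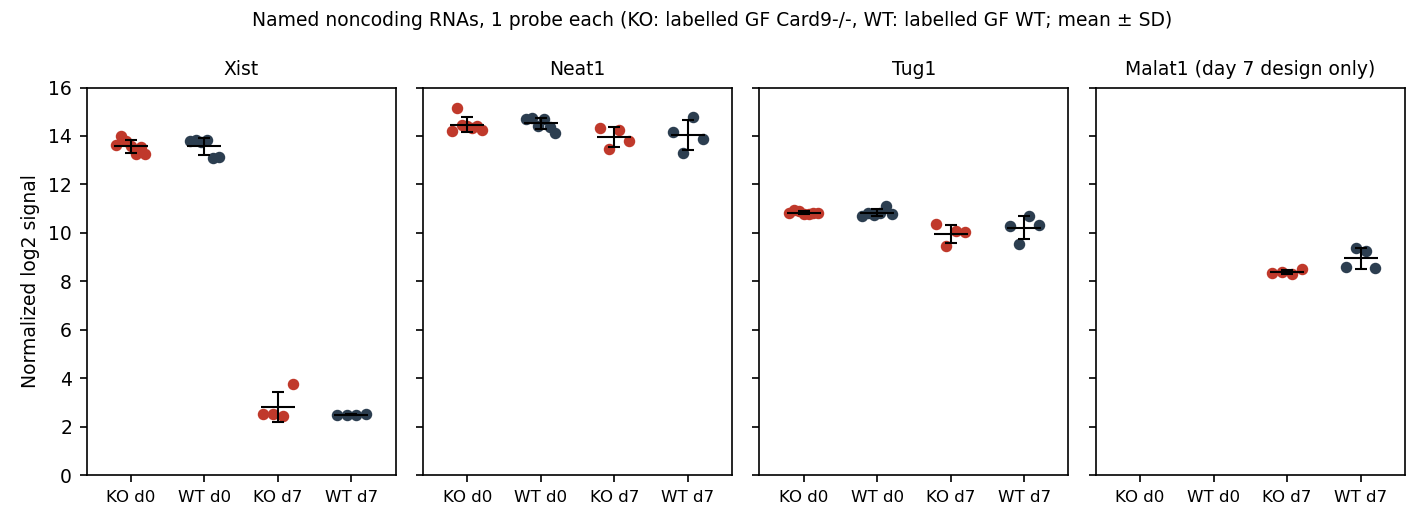
Normalized log2 signal (y axis) of 1 lincRNA probe each for Xist, Neat1, Tug1 and Malat1 in every array, with mean and SD, for the arrays labelled GF Card9-/- (KO) and GF WT at day 0 (d0) and day 7 (d7); the Malat1 probe is A_30_P01020325. Xist lies between 13.09 and 13.99 at day 0 and between 2.45 and 3.76 at day 7 under both labels, and Neat1 and Tug1 overlap between the labels.

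Neat1 was among the brightest lincRNAs and did not pass the test at either day. At day 0 its probe A_30_P01029720 ranged from 14.2 to 15.15 (median 14.41) under GF Card9-/- and from 14.14 to 14.73 (median 14.56) under GF WT, with means of 14.46 ± 0.32 (SD, n = 7) and 14.51 ± 0.24 (SD, n = 6). At day 7 it read 14.33, 13.78, 13.45 and 14.25 in GF Card9-/- replicates 2, 2.1, 4 and 6 and 14.18, 13.31, 14.8 and 13.87 in GF WT replicates 1, 4, 5 and 6. The 5 Neat1 probes of the day 7 design gave differences of -0.04 to -0.11, all smaller than the SD between arrays. Tug1, a conserved lincRNA found in the nucleus and cytoplasm, did not pass the test either. Its probe A_30_P01033104 had means of 10.84 ± 0.067 (SD, n = 7) and 10.84 ± 0.14 (SD, n = 6) at day 0, a difference of 0 with a 95% confidence interval from -0.14 to 0.14. At day 7 its 5 probes gave differences of -0.02 to -0.32, none of which passed the test.

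Malat1 is measured by lincRNA probes on the day 7 design alone, where the 2 abutting probes printed above both read lower under the label GF Card9-/-. A_30_P01020325 had 8.36, 8.5, 8.39 and 8.31 in GF Card9-/- replicates 2, 2.1, 4 and 6 and 8.6, 9.39, 9.26 and 8.54 in GF WT replicates 1, 4, 5 and 6. Day 7 values below are in the same order of replicates. The labels did not overlap, with 8.5 as the highest of the former and 8.54 as the lowest of the latter. The difference was -0.56 (SE 0.216, limma adjusted p = 0.913). A_30_P01019221 differed by -0.5 (SE 0.242), and neither passed after adjustment. A probe outside the class with the same 60 bases as A_30_P01019221, A_55_P2021187, differed by -0.31 (SE 0.241). The 2 probes cover 1 short stretch of the transcript and are not independent.

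The other named RNAs were dim or did not pass the test. Kcnq1ot1, the antisense RNA that silences an imprinted gene cluster on chromosome 7, was above background on all arrays of both days with probe A_30_P01026203, at 9.23 ± 0.24 (SD, n = 7) against 9.13 ± 0.18 (SD, n = 6) at day 0. At day 7 its difference was -0.19 (SE 0.206, limma adjusted p = 0.913). H19, an imprinted RNA of fetal tissues, and Hotair, a transcript of the HoxC cluster, had no lincRNA probe above background at day 0, and at day 7 none of their 10 lincRNA probes was above background on more than 3 arrays. H19 was nevertheless detected by probes outside the class, by A_55_P2903297 on 12 of the 13 day 0 arrays (difference 0.2, SE 0.572) and by A_55_P1961127 on 7 of the 8 day 7 arrays (0.04, SE 0.787). Nron, a repressor of the transcription factor NFAT, read 5.94, 6.07, 6.13 and 6.33 under GF Card9-/- and 5.77, 5.49, 5.54 and 5.87 under GF WT at day 7 with probe A_30_P01025636. These values did not overlap, with a difference of 0.45 (SE 0.138, limma adjusted p = 0.913). The probe outside the class with the same 60 bases, A_55_P2207335, differed by 0.34 (SE 0.227).

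A list of 39 long noncoding RNA genes was read with all probes, inside and outside the class. At day 0 it was measured by 76 probes of 34 genes, of which 38 probes were above background on all arrays, and at day 7 by 79 probes of 27 genes, of which 35 were. No probe passed the test after adjustment at either day. At day 0 none of the 65 tested had an unadjusted limma p under 0.05, beside 5.84% of all probes of the arrays. Of the 66 tested at day 7, 2 did, beside 3.38% of all probes, and 1 of the 2 is A_30_P01020325 of Malat1, described above. Gas5 and Hoxa11os, to which the class has no probe, did not pass the test at day 7, with differences of -0.01 for A_55_P2178378 (SE 0.202, limma adjusted p = 1) and 0.01 for A_55_P2041700 (SE 0.222, adjusted p = 1).

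The question of the genotype comparison was whether loss of Card9, independently of a microbiota, changes colon RNA. At day 0, no lincRNA probe passed an adjusted p of 0.05 in limma (0 of 3471 tested), where 0.0253% of all 47410 probes tested did. With an unadjusted p under 0.05 there were 145 lincRNA probes, 82 higher and 63 lower under GF Card9-/-, which is 4.18% of them beside 5.84% of all probes. Without GF WT replicate 5 there were 289, or 7.93% beside 9.01% of all probes. The values of the labels did not overlap for 4 lincRNA probes (3 higher and 1 lower), or 0.115%, beside 0.458% of all probes. Both shares lay below those of all probes. A difference of at least 2-fold was found for 21 of the 3471 lincRNA probes, beside 456 of all 47410 probes. Among those above background on all arrays it was found for 1 of 1471, beside 62 of all 28235. Without the slide that holds GF WT replicate 6, 1 lincRNA probe passed, A_30_P01025529 (limma adjusted p = 0.0281). It was above background on no array, so that no fold is given. GF WT replicate 6 was at 3.89 where the other arrays of that label were at 2.39 to 2.48.

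At day 7, again no lincRNA probe passed (0 of 11430 tested), as among all 44643 probes (0%). With an unadjusted p under 0.05 there were 456 lincRNA probes, 301 higher and 155 lower, or 3.99% beside 3.38% of all probes. Without GF WT replicate 6 there were 982, or 7.92% beside 6.31% of all probes. The values did not overlap for 245 (148 higher and 97 lower), or 2.14% beside 2.13% of all probes. These shares were near those of all probes. Without the arrays in which the pancreas markers were high, GF Card9-/- replicates 2.1 and 6, 1 lincRNA probe passed, A_30_P01032572 on chromosome 15 (limma adjusted p = 0.0109). It read 6.14 and 5.97 in the replicates kept, 2 and 4, but 2.45 and 2.5 in those left out and 2.48 to 2.51 under GF WT. No fold is given for it, since the arrays labelled GF WT were at the background. Without GF WT replicate 1 as well, the array with Card9 signal, 2 and 3 arrays were left. The lowest limma adjusted p of any lincRNA probe was then 0.0963. Beyond this the part of the pancreas signal was not tested. The lowest adjusted p of a lincRNA probe was 0.122 at day 0 and 0.312 at day 7. The median difference of the lincRNA probes tested was 0.03 at day 0 and 0.01 at day 7, beside 0.02 and 0.00 over all probes.

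The spread between arrays limited what could be seen. The median SE of the genotype difference was 0.195 for lincRNA probes at day 0 against 0.153 for the others, and 0.332 against 0.253 at day 7. Among probes above background on all arrays it was 0.133 against 0.114 and 0.224 against 0.195. A total of 674 of the 11430 lincRNA probes tested differed by at least 2-fold at day 7, beside 2041 of all 44643 probes. Among those above background on all arrays, 7 of 2291 did, beside 137 of all 21142. The rest of the 674 were above background on fewer arrays or none.

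**Figure D4:**
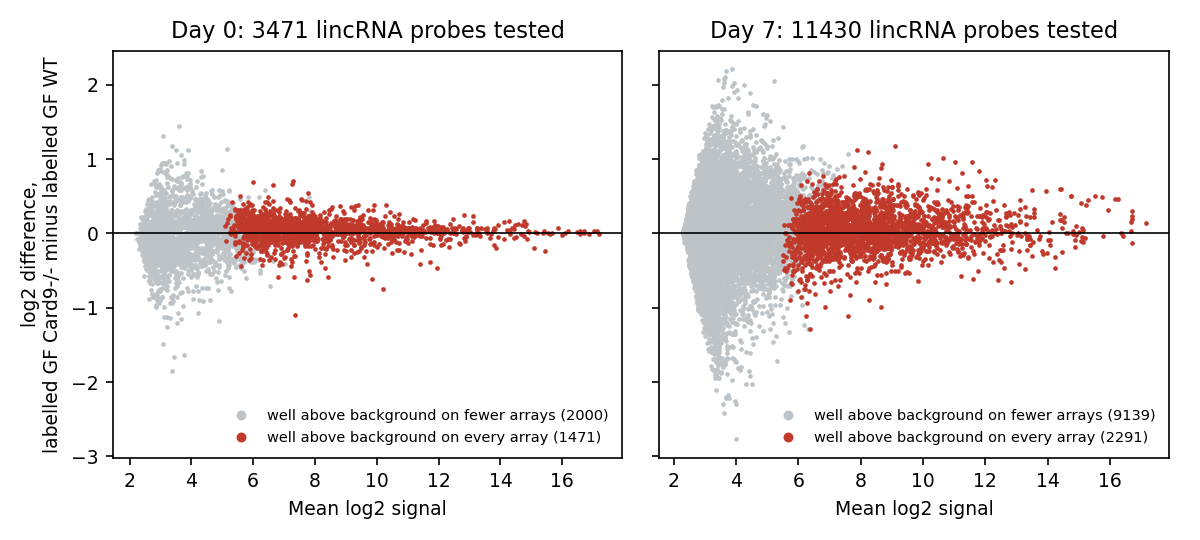
Difference between labels (y axis, log2, GF Card9-/- minus GF WT) against the mean log2 signal over arrays (x axis) for each lincRNA probe tested, with probes above background on every array in red. The wide differences lie among dim probes in grey, and beyond 1 in either direction lie 1 of 1471 red points at day 0 and 7 of 2291 at day 7.

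The lincRNA probe with the lowest p at day 0 was A_30_P01018875, from a region of chromosome 2 in which the nearest coding probe, 24 kb away on the other strand, is that of Lbp, the lipopolysaccharide-binding protein. It ranged from 7.64 to 8.16 (median 7.74) under GF Card9-/- and from 7.25 to 7.48 (median 7.33) under GF WT, so that the labels did not overlap. The means were 7.8 ± 0.17 (SD, n = 7) and 7.35 ± 0.088 (SD, n = 6), a difference of 0.45 (SE 0.0797, 95% confidence interval 0.27 to 0.62, limma adjusted p = 0.122). A neighbouring probe of the same region and strand, A_30_P01021037, differed by 0.29 (SE 0.124). Lbp itself differed by -0.2, without passing. At day 7 A_30_P01018875 read 6.36, 6.25, 6.39 and 5.92 under GF Card9-/- and 6.82, 6.01, 6.82 and 6.47 under GF WT. These overlapped, with a difference of -0.3 (SE 0.215), and the difference between the days was -0.74 (adjusted p = 0.425).

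The pair on chromosome 17 that shares 56 bases followed at day 0. A_30_P01028665 ranged from 7.19 to 8.27 (median 7.51) under GF Card9-/- and from 6.66 to 7.15 (median 6.87) under GF WT, with no overlap and a difference of 0.7 (SE 0.148, limma adjusted p = 0.211). A_30_P01027121 ranged from 7.21 to 8.12 (median 7.46) and from 6.52 to 7.18 (median 6.94), a difference of 0.67 (SE 0.154, adjusted p = 0.264), or 0.4268 with the normexp background correction. Since the shared run covers nearly the whole of both probes, they can bind the same transcript and count as 1 observation. The coding probe nearest to A_30_P01028665 is that of Dynlt1f, 149 kb away, which differed by 0.25 without passing the test. A_30_P01027121 lies on the minus strand between probes of Tmem181a, a gene of the plus strand that encodes a transmembrane protein, whose probe A_66_P136523 differed by 0.97 (adjusted p = 0.108) and whose other probe A_65_P11919 differed by 0.43 (adjusted p = 0.622).

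At day 7 the pair gave smaller values in the same direction. A_30_P01028665 read 6.46, 6.06, 6.2 and 6.19 under GF Card9-/- and 6.31, 5.62, 5.55 and 5.65 under GF WT, a difference of 0.44 (SE 0.193), in which GF WT replicate 1 lay among the arrays labelled GF Card9-/-. A_30_P01027121 differed by 0.19 (SE 0.36), and GF WT replicate 1 had its highest value, 7.44. That array is the one labelled GF WT with Card9 signal. The day 7 design holds another probe of the first region, A_30_P01018541, at 4.11, 5.73, 5.27 and 4.42 under GF Card9-/-, of which 3 were above background, and 2.72, 2.58, 2.63 and 3.65 under GF WT, of which none were. It did not pass the test (adjusted p = 0.913), and no size is given for its difference, since every array labelled GF WT was below background.

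The remaining lincRNA probes of day 0 with the lowest p were mostly dim. A_30_P01020495, on chromosome 4 near the ubiquitin ligase gene Topors, was above background on 3 of 7 arrays labelled GF Card9-/- and none labelled GF WT, with medians of 4.64 and 3.96 (limma adjusted p = 0.145). No fold is given, since most arrays of both labels were below background. A_30_P01032744, 28.8 kb from Zfp934, a zinc finger gene, was above background on no array and no fold is given. Among the probes above background on all arrays, A_30_P01031737, on chromosome 3, had medians of 7.36 and 6.93 and differed by 0.42 (SE 0.0964, adjusted p = 0.268). A_30_P01020004, 3.55 kb from Pigv, a gene of glycolipid anchor synthesis on the same strand, ran the other way. It ranged from 5.87 to 6.38 under GF Card9-/- and from 6.31 to 6.7 under GF WT, a difference of -0.36 (SE 0.0842, adjusted p = 0.272; -0.1902 with the normexp background correction), while Pigv differed by 0.01. At day 7 A_30_P01020004 differed by -0.6 (SE 0.26).

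The opposite-strand pair on chromosome 11 read higher under GF Card9-/- on both strands at day 0. A_30_P01030698, for the reverse strand, ranged from 9.76 to 10.17 under GF Card9-/- and from 9.39 to 10 under GF WT (difference 0.31, SE 0.0984, limma adjusted p = 0.561). A_30_P01023604, for the forward strand, was above background on 4 of 7 arrays labelled GF Card9-/- and none labelled GF WT (adjusted p = 0.562), and no fold is given. At day 7 A_30_P01030698 read 7.89, 8.25, 7.68 and 7.41 against 8.89, 9.27, 7.86 and 8.8, a difference of -0.9 (SE 0.325, adjusted p = 0.913). The difference between the days was -1.21 (adjusted p = 0.338).

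At day 7 the 5 lincRNA probes with the lowest p were all dim, and all were higher under GF Card9-/-. A_30_P01028188, from a short region of chromosome 13, read 4.15, 4.16, 4.12 and 4.05 under GF Card9-/- and 2.97, 2.63, 2.53 and 2.85 under GF WT (limma adjusted p = 0.312). The values lay close together within each label and did not overlap, yet 1 of the 8 was above background. A_30_P01019438 (adjusted p = 0.668) and A_30_P01023619 (adjusted p = 0.913) were also above background on 1 array, and A_30_P01019115 (adjusted p = 0.681) and A_30_P01030614 (adjusted p = 0.913) on none. Their differences are not read as folds, since their values are those of spots near the background. With the normexp background correction their differences were 0.1234 to 0.3013, against 0.792 to 1.5149 without it. With values below the dimmest measured signal of an array raised to that signal, their direction turned, to differences of -0.5447 to -0.1877, in which most values are those of the arrays' limits (means 4.37 for GF Card9-/- and 4.91 for GF WT) and not of the probes. Their nearest coding probes were those of Tmem171 (13.2 kb from A_30_P01028188), Tmcc3 (157 kb from A_30_P01019438), Gins4 (7.57 kb from A_30_P01019115), Pramel51 (111 kb from A_30_P01023619) and Zfp831 (94.4 kb from A_30_P01030614). The first 3 of these genes were tested and differed by 0.08, 0.1 and -0.07, and none passed.

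The day 7 probes above background on every array did not pass either. A_30_P01024661, 25.1 kb from the nearest probe of Trim30b, read 7.81, 7.73, 7.82 and 7.94 under GF Card9-/- and 7.41, 7.1, 7.36 and 7.51 under GF WT, with no overlap. The difference was 0.48 (SE 0.12, limma adjusted p = 0.913), and it was 0.31 (SE 0.204) at day 0. A_30_P01022270, 9.86 kb from the calcium-binding protein gene S100a6, read 7.49, 6.94, 7.61 and 6.95 against 8.11, 7.84, 8.38 and 7.97, a difference of -0.83 (SE 0.208). The low values 6.94 and 6.95 are those of replicates 2.1 and 6, in which the pancreas markers were high, and without these arrays the difference was -0.5215. A_30_P01021238 near Zbtb38 differed by -0.82 (SE 0.207), by -0.4436 with the normexp background correction, and by -0.5255 without the arrays with high pancreas markers and GF WT replicate 1. A_30_P01022661 near Mecom, a transcription factor gene, differed by 0.55 (SE 0.143) at day 7, or 0.3296 with the replicate number as a block, and by -0.25 (SE 0.318) at day 0.

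Several probes beside Irf1, the interferon regulatory factor gene, read higher at day 7. A_30_P01025535, 5.04 kb from the Irf1 probe and on the opposite strand, read 7.28, 7.58, 7.75 and 7.53 under GF Card9-/- and 7.15, 6.87, 6.94 and 7.11 under GF WT. The labels did not overlap and differed by 0.52 (SE 0.135, limma adjusted p = 0.913). A_30_P01028276, of the same region, differed by 0.73 (SE 0.259). A_30_P01030888 (0.77) and A_30_P01030240 (0.56), which belong to an overlapping region, also read higher, whereas the next probe of that strand, A_30_P01019936, had a difference of -0.02. Some of these probes overlap in position, so that they are not independent. Irf1 itself differed by -0.42, without passing. At day 0 A_30_P01019936 differed by 0.01.

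On chromosome 5, the 3 probes of the reverse strand of 1 region were all above background on every array at day 7 and all read lower under GF Card9-/-. A_30_P01028374, at chr5:22890323-22890382 on the minus strand, differed by -0.94, A_30_P01025339 by -0.75 and A_30_P01021129 by -1.28. Each had an adjusted p of 0.913. All 3 share a run of at least 40 bases with A_30_P01029305, a probe of an overlapping region, and they are not independent. At day 0 A_30_P01028374 differed by 0.01. The nearest coding probe is that of Lhfpl3, over 100 kb away.

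Where a transcript had at least 3 probes above background on all arrays, its probes mostly agreed in direction at day 7. There were 148 such transcripts, with 526 probes, and in 98 (66.2%) all probes had the same sign, 36 higher and 62 lower. The differences of the probes of 1 transcript spanned a median of 0.21 and at most 0.85. The measurement itself was tighter than this. In 29 pairs of a lincRNA probe and another probe with the same 60 bases, both above background on all arrays, the genotype differences differed by a median of 0.05 and at most 0.19. On the day 0 design 5 lincRNA probes are spotted 10 times, and the SD between spots of an array was 0.015 to 0.093, against an SD between arrays of 0.048 to 0.16.

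Whether the genotype difference itself differed between the days was tested on the 3005 lincRNA probes measured on both designs. No lincRNA probe passed (0 of 3005), nor did any of the 23633 probes tested (0%). With an unadjusted limma p under 0.05 there were 161 lincRNA probes, 87 with a higher and 74 with a lower difference at day 7, or 5.36% beside 7.14% of all probes. There were 327 without day 7 GF WT replicate 6 (10.6% beside 10.2% of all probes) and 255 without day 7 GF WT replicate 4 (8.11% beside 10%). The lowest adjusted p was 0.281. Leaving out a single day 7 array gave 1 call in 2 cases, A_30_P01030698 without GF WT replicate 5 (-1.49, adjusted p = 0.0277) and A_30_P01032635 without GF WT replicate 6 (adjusted p = 0.0128). Without the 3 arrays with high pancreas markers, A_30_P01027749 passed (adjusted p = 0.000106). It was above background on the 2 GF Card9-/- arrays of day 7 that were kept and on no other array, so that no fold is given. A_30_P01032635, on chromosome X at chrX:100701447-100701506 and 90.1 kb from Tsx, had an adjusted p of 0.281 with all arrays. It read 3.47, 3.18, 3.19 and 3.47 under GF Card9-/- and 6.1, 6.25, 5.06 and 3.95 under GF WT at day 7, where it was above background on none and 2 of the 4 arrays (adjusted p = 0.913), and no fold is given. At day 0 it differed by 0.21 (SE 0.194).

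The neighbouring coding genes were taken as the nearest probe on the same chromosome that was designed on a RefSeq mRNA. The median distance was 34.6 kb at day 0 and 32.5 kb at day 7, and 78.3% and 80.2% of the lincRNA probes had such a neighbour within 100 kb. These distances are between probe positions and not gene ends. On the day 7 design, lincRNA probes close to a coding probe on the same strand were detected most often. Of the 246 within 1 kb on the same strand, 52.4% were above background on all arrays, against 6.76% of the 296 within 1 kb on the opposite strand. From 1 to 10 kb the shares were 22.3% and 11.2%, and from 10 to 100 kb 13.7% and 13%. At day 0 the shares within 1 kb were 51.7% of 29 probes and 36.9% of 65.

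**Figure D5:**
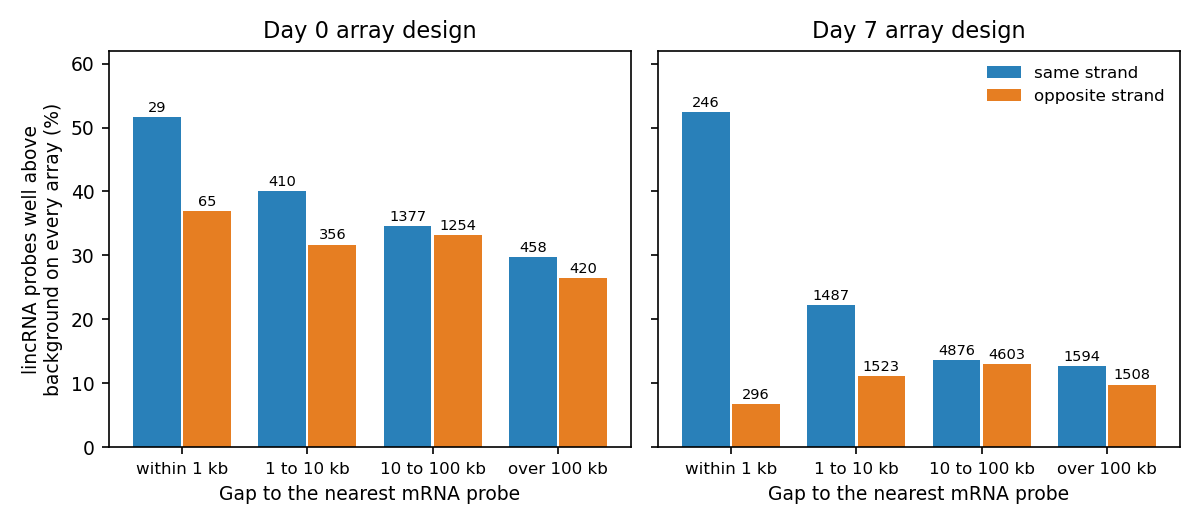
Share of lincRNA probes well above background on every array (y axis, percent) by the distance to the nearest mRNA probe (x axis) and by strand, with the number of probes over each bar. On the day 7 design the share is 52.4% within 1 kb on the same strand and 6.76% on the opposite strand, and the strands differ little beyond 10 kb.

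Close neighbours correlated more across arrays than distant ones. For pairs both above background on all arrays, the median correlation across the 8 day 7 arrays was 0.63 within 1 kb (131 pairs), 0.28 from 1 to 10 kb (395 pairs), 0.03 from 10 to 100 kb (852 pairs) and -0.09 beyond (209 pairs). Across the 13 day 0 arrays it was 0.35, 0.22, 0.17 and 0.18. The genotype differences of neighbours correlated across pairs at 0.52, 0.34, 0.12 and 0.06 at day 7 and at 0.68, 0.3, 0.05 and 0.02 at day 0. Both differences had the same sign in 68.7%, 65.8%, 49.8% and 48.8% of the pairs at day 7. At day 0 this share was 52.8% (36 pairs), 63.9% (241 pairs), 61.3% (677 pairs) and 49.7% (173 pairs), and so was not highest at the shortest distance. These are descriptions across pairs that share arrays and, at short distance, possibly transcripts.

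Neighbours were also read by function. The lists used for this held 71 genes for transcription factors of the gut and Hox genes, which set regional identity, and 34 immune genes. At day 0, 34 lincRNA probes had a gene of the first list as nearest gene, 9 of them above background on all arrays, and none of the 21 tested had an unadjusted limma p under 0.05, beside 4.18% of lincRNA probes and 5.84% of all probes. At day 7 there were 128, with 12 above background on all arrays. Of the 78 tested, 3 had an unadjusted limma p under 0.05, near the 3.99% of lincRNA probes and 3.38% of all probes at that level, 1 higher (A_30_P01032051, nearest Klf4, 0.51) and 2 lower (A_30_P01031332 nearest Hoxb9, -0.96, and A_30_P01032224 nearest Foxf1, -0.53). Near immune genes there were 20 lincRNA probes at day 0, of which 16 were tested and none was at that level, and 76 at day 7, of which 57 were tested, 6 were higher and 1 was lower (7 of 57, beside the same 3.99% and 3.38%). Of these 7, 4 are the probes beside Irf1 described above, 2 lie near Bcl6 in opposite directions (A_30_P01024285, 1.7, and A_30_P01033600, -1.67) and 1 near Socs3 (A_30_P01023106, 1.21), and the last 3 were above background on at most 2 arrays. The median difference of the 57 was 0.09, beside 0.01 over all lincRNA probes tested, and none passed after adjustment.

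The surroundings of Card9 itself, on chromosome 2, were read separately. Within 5 Mb of Card9, 17 lincRNA probes were tested at day 0, of which 2 were higher and 1 was lower at an unadjusted limma p under 0.05, with differences from -1.2 to 0.32, where 5.84% of all probes were at that level. At day 7, 57 were tested, with 1 higher and 2 lower and differences from -1.33 to 0.77, beside 3.38% of all probes. Their median difference was 0.05 at day 0 and 0.01 at day 7. Across the whole of chromosome 2, 6 of 226 were higher and 4 lower at day 0, and 21 of 739 were higher and 8 lower at day 7, near the shares of all lincRNA probes (4.18% and 3.99%) and beside 5.84% and 3.38% of all probes.

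Single arrays also held lincRNA signals that no other array of the day shared. A lincRNA probe at least 8-fold above every other array of its day was found 0 to 34 times per array at day 0, most often in GF WT replicate 6, and 10 to 142 times at day 7, most often in GF WT replicate 1. Relative to their number these were 0% to 0.762% of the lincRNA probes of a day 0 array and 0.0615% to 0.874% of a day 7 array, against 0.00959% to 0.441% and 0.0406% to 0.477% of the other probes. In bulk colon RNA, fewer cells of a type and less RNA per cell cannot be told apart, and this holds for every level given here.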

How the data were processed

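Colon RNA was measured on single-color Agilent arrays of 2 designs, 1 for day 0 (13 arrays) and 1 for day 7 (8 arrays). The authors extracted spots with Agilent Feature Extraction 10.7.3.1, a version given in the submitters' processing notes. The intensity of each spot was deposited on a linear scale, before any normalization across arrays. A deposited p-value sets each spot against its local background. The authors' deposited table of log2 values was used as an alternative.

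The processed signal was log2-transformed and quantile normalized over all spots of a day, control and outlier spots were dropped, and spots were averaged by probe. A probe was well above background when at least 50% of its spots were, and was tested when its detection p was under 0.05 on at least 60% of the arrays of a genotype. Labels were compared by limma 3.58.1 (R 4.3.3) with Benjamini-Hochberg adjustment over all probes tested. No fold is read from a probe below background on every array of a label. Where a difference of such a probe is printed, it is a distance to background values and gives no size. The scripts were tested on simulated data. Coordinates are those of the deposited annotation (NCBI37).

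Members, lists and tests were chosen with earlier results of these data known. The naming rule took members past the threshold without overlap and above background on over 50% of the arrays of a genotype or, with fewer than 5 of these, the 5 with the lowest p of each day, members past the threshold between days, members on the lists, and nearest coding genes. The probes above background on all arrays, those of their regions, the chromosome 5 probes and the opposite-strand pair were chosen after their values were seen. Alternatives changed the normalization, background correction, source table, filter, dim values, slide, scan session, replicate number and the arrays included. GF Card9-/- replicates 2 and 2.1 were counted as separate samples, with their mean as an alternative. Precision is limited by the number of arrays. The sequence and values of 1 probe are not reported here.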

Additional observations from a re-analysis of the deposited data

Results flagged for a closer look

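In groups of 4 to 10 arrays, a single array lay far from the others of its label in 7 of 66 groups examined (10.6%), and chance marks about 1 in 20 groups. At day 0, GF Card9-/- replicate 2 stood apart in A_30_P01018875 (8.16, others 7.64 to 7.84) and in the Neat1 probe A_30_P01029720 (15.15, others 14.2 to 14.47). GF WT replicate 5 stood apart in the Tug1 probe A_30_P01033104 (11.11, others 10.71 to 10.84), and GF WT replicate 6 in A_30_P01025529 (3.89, others 2.39 to 2.48). At day 7, GF WT replicate 6 was at 3.15 in A_30_P01023619 (others 2.59 to 2.64) and at 3.15 in A_30_P01030614 (others 2.61 to 2.67). GF Card9-/- replicate 2.1 was at 3.76 in the Xist probe A_30_P01023652 (others 2.45 to 2.52), which was still not well above background.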

How the results depend on the processing

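No lincRNA probe passed under 27 of 28 alternatives at day 0, 20 of 21 at day 7 and 22 of 25 for the difference between the days. The exceptions had 1 call each. They were without the slide of GF WT replicate 6 (1, day 0), without the arrays with high pancreas markers (1 at day 7 and 1 between the days), and without day 7 GF WT replicate 5 (1) or 6 (1, both between the days). Leaving out each replicate gave 0 to 0 calls at day 0, 0 to 0 at day 7 and 0 to 1 between the days. The settings that leave out arrays with high pancreas markers were chosen after seeing the data. The number of lincRNA probes with an unadjusted limma p under 0.05 ran from 77 to 289, 171 to 982 and 91 to 327, and the highest counts were those without GF WT replicate 5 (day 0), GF WT replicate 6 (day 7) and day 7 GF WT replicate 6 (between the days). The cause of these moves was not tested.

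With dim values raised to the dimmest probe well above background, the day 7 differences reversed to -0.5447 for A_30_P01019115, -0.1877 for A_30_P01019438, -0.4928 for A_30_P01023619, -0.4441 for A_30_P01028188 and -0.5419 for A_30_P01030614. Most values of these probes were raised, to limits whose means were 4.37 for GF Card9-/- and 4.91 for GF WT, so that these differences mix the limits with the few values above them. That setting moved the median of all day 7 probes to -0.211. The other 376 values of single probes kept their direction, and none was past the threshold before or after. Of these, 26 values of 12 probes moved by over 1.5 times, all of them to a smaller size. They ran down to 0.1226 from 0.8475 for A_30_P01032744 (dim values raised), to 0.143 from 0.6638 for A_30_P01020495 (authors' table), to 0.3296 from 0.5528 for A_30_P01022661 (replicate block) and to -0.5111 from -0.8257 for A_30_P01022270 (without the arrays with high pancreas markers and GF WT replicate 1). Most arrays were below background for A_30_P01032744 and A_30_P01020495, so that their differences give no fold.

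With the looser criterion (p under 0.05 and brighter than background) the median shares were 69.8% and 72.3% at day 0 and 57.3% and 48.5% at day 7, for GF Card9-/- and GF WT in turn. Leaving out each replicate gave 42.3% to 44.8%, 42.8% to 44.4%, 26.4% to 27.4% and 20.5% to 23.8%. A neighbour within 100 kb was found for 93% (day 0) and 91.5% (day 7) with any named probe, and on both sides for 43.5% and 44.1%. The 95% exact binomial intervals of the reported shares were 77% to 79.5% and 79.6% to 80.8%, for counting error only.

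Whether the replicate numbers pair the arrays is not known, since arrays of unlike number were not compared. The deviations of same-numbered arrays from their label means correlated at 0.305, 0.293, 0.0587, -0.00735, 0.375 and -0.0217 at day 0. At day 7 they correlated at 0.11 and 0.0288. With the replicate number as a block 0 lincRNA probes passed at either day, as without it. The day 0 share of all probes with an unadjusted limma p under 0.05 was then 8.43%, against 5.84% without it. Levels under about 4 to 6 on the log2 scale lie at the background.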
